A study of Rattus norvegicus with 5 samples.

Results

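The genes described here make, package and clear GABA, the transmitter that every spiny projection neuron of the striatum releases. They were taken by name: Gad1, Gad2, Slc32a1, Slc6a11 and Abat, 5 of the 32285 genes counted, and each of the 5 symbols matched 1 gene. The counts came from rat striatal neurons filled with fluorescent tracer from the region their axons reach and then cut out by laser capture. Striatomesencephalic neurons, which send axons to the midbrain, gave 2 libraries, and striatopallidal neurons, which send axons to the pallidum, gave 3. The sources used here do not give strain, age, sex or how many animals and cells a library came from. P-values therefore measure the spread between these libraries, which may be partly technical.

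GABA is made from glutamate by the glutamate decarboxylases, which use pyridoxal phosphate as cofactor. Gad1 encodes GAD67, which is spread through the cell and makes most of the GABA in the brain, and Gad2 encodes GAD65, which sits at terminals and synaptic vesicles. Slc32a1 encodes VGAT, the transporter that loads GABA into vesicles. Released GABA is taken back up by GAT transporters, of which GAT3, encoded by Slc6a11, is known mainly from astrocytes. Abat encodes GABA transaminase, the mitochondrial enzyme that starts GABA breakdown.

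RefSeq start-site sequences of build GRCr8 were at hand for 4 of the 5 members. Those of both decarboxylase genes and of Slc32a1 are shown because these genes carry the comparison between synthesis and packaging. Each stretch lies on the plus strand and ends 1 base before the first transcribed base of the gene in RefSeq. Capitals mark matches, on either strand, to TATAAA, to GGGCGG, to CCAAT or to TGACGTCA.
Gad1, chr3:75777202-75777259: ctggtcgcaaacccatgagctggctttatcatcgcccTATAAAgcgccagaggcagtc
Gad2, chr17:89671468-89671717: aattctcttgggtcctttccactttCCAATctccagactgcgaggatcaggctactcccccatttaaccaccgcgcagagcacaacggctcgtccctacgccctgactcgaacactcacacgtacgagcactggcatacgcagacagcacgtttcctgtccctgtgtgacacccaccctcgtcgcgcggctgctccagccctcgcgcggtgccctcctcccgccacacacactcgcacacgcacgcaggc
Slc32a1, chr3:167686995-167687244: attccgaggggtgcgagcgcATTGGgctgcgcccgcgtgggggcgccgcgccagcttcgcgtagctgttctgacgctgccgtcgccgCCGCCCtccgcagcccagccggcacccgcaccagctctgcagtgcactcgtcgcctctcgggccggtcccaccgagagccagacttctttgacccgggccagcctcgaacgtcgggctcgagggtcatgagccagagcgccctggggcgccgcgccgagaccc

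The Gad1 stretch, 58 bases long, holds TATAAA with its first base 21 bases before the first transcribed base. The Gad2 stretch holds CCAAT, and the Slc32a1 stretch holds both CCAAT and GGGCGG, each as its reverse complement. TGACGTCA was in none of these stretches. Among the first 250 bases of 33469 rat promoter windows, 12.9% hold TATAAA, 30.5% hold GGGCGG, 34% hold CCAAT and 1.59% hold TGACGTCA. The Gad1 stretch is shorter, so these shares are not its background. In its full 250 bases the Gad1 window also holds GGGCGG, as its reverse complement, past the first transcribed base. Bases G and C make up 73.6% of the Slc32a1 stretch, 62% of the Gad2 stretch and 55.2% of the 58 bases of the Gad1 stretch. For Gad1 they make up 68.4% of the full 250 bases, most of which lie past the first transcribed base. The median over those windows was 51.2%.

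Library totals ran from 20845178 to 24805062 counts, at which 3 counts, taken as the detection floor, equal 0.121 to 0.144 CPM (counts after division by the library total, put on a common scale). The 5 direct pathway markers fixed for this check (Drd1, Tac1, Pdyn, Isl1 and Chrm4) summed to 4384 and 4929 CPM in striatomesencephalic libraries and to 1569 to 2387 CPM in striatopallidal libraries. The 5 indirect pathway markers (Drd2, Adora2a, Penk, Gpr6 and Ptprm) summed to 1837 and 2013 CPM in striatomesencephalic libraries and to 6197 to 6881 CPM in striatopallidal libraries. In sum, each group thus held more RNA of its own pathway's markers, and some of the other's. Chrm4 alone of these markers overlapped between the groups. It stood at 12.9 and 41.9 CPM in striatomesencephalic and at 15.8, 17.7 and 16.6 CPM in striatopallidal libraries. Striatopallidal replicate 2 stood apart, with Spearman correlations of 0.785 to 0.82 with the other libraries across 13811 genes, which are not replicates. Fold changes below are log2 values, striatomesencephalic minus striatopallidal, from edgeR's quasi-likelihood test over those 13811 genes, and adjusted p-values are Benjamini-Hochberg values over all of them. In bulk samples such as these, fewer cells of a type and less RNA per cell cannot be told apart.

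None of the 5 members passed the threshold of 0.05, and neither did any other gene, so the background is 0% (0 of 13811 genes). With an unadjusted p below 0.05 the test had 839 genes (6.07%), 1 of them a member, Slc32a1. DESeq2 called 219 genes (1.59%), none of them a member, and limma voom called 0. All 5 members had passed the filter on low counts. The members differed in steadiness: both decarboxylase genes varied less within a group than most genes did, whereas the genes for packaging, glial uptake and breakdown varied more than most.

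Gad1 was among the steadiest genes measured. It stood at 448 and 396 CPM in striatomesencephalic libraries and at 346, 285 and 348 CPM in striatopallidal libraries. Every striatomesencephalic value lay above every striatopallidal one, by a narrow margin between 396 and 348 CPM. The mean was 422 ± 36.7 CPM for the striatomesencephalic group (SD, n = 2) and 326 ± 35.7 CPM for the striatopallidal group (SD, n = 3). The fold change was 0.29 ± 0.32 (SE) with an adjusted p of 0.886 in edgeR's quasi-likelihood test, so the difference did not exceed the spread that this fit assigns to the gene. Its 95% interval ran from -0.46 to 1.05, which covers both no difference and a doubling in striatomesencephalic neurons. Groups that do not overlap in this direction were found for 11.2% of all genes tested.

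Gad2 had closely matching group means. It stood at 939 and 1011 CPM in striatomesencephalic libraries and at 1099, 567 and 1298 CPM in striatopallidal libraries. The groups overlapped, with the lowest value and the highest both in striatopallidal libraries. The mean was 975 ± 50.5 CPM for the striatomesencephalic group (SD, n = 2) and 988 ± 378 CPM for the striatopallidal group (SD, n = 3). The fold change was -0.042 ± 0.32 (SE), with an adjusted p of 0.993 in edgeR's quasi-likelihood test and a 95% interval from -0.8 to 0.71. The sign of this small value changed when striatomesencephalic replicate 1 (0.032) or striatopallidal replicate 3 (0.15) was left out.

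Slc32a1 had the fold change of largest size among the members. It stood at 34.6 and 117 CPM (722 and 2638 counts) in striatomesencephalic libraries. In striatopallidal libraries it stood at 265, 857 and 137 CPM (6316, 21257 and 3060 counts). Both striatomesencephalic values lay below all striatopallidal ones, although striatomesencephalic replicate 2 and striatopallidal replicate 3 were close. Groups that do not overlap in this direction were found for 9.91% of genes, and in either direction for 21.1%. The mean was 75.6 ± 58 CPM for the striatomesencephalic group (SD, n = 2) and 419 ± 384 CPM for the striatopallidal group (SD, n = 3).

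The fold change of Slc32a1 was -2.73 ± 1.07 (SE), with a 95% interval from -5.25 to -0.21. Its unadjusted p was 0.0376 and its adjusted p 0.779 in edgeR's quasi-likelihood test, and DESeq2 gave an adjusted p of 0.172. It was -1.30 ± 0.67 (SE) without striatopallidal replicate 2, the library with the highest value and the one that stood apart. Leaving out the highest striatopallidal library could not have made the groups overlap, so their separation without it adds nothing.

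Markers of striatal interneurons, which are GABAergic or cholinergic and also carry Slc32a1 where they release GABA, had a lower sum in the same libraries. Of 13 listed markers, 6 were matched (Sst, Nos1, Chat, Slc5a7, Calb2 and Kit), none at 0 in any library. They summed to 83.6 and 109 CPM in striatomesencephalic libraries and to 127, 157 and 166 CPM in striatopallidal libraries. The sums did not overlap, but the markers did not share 1 direction. In striatomesencephalic libraries 3 of the 6 lay wholly below (Sst, Chat and Kit) and 2 wholly above (Slc5a7 and Calb2). The shares over all genes tested were 9.91% and 11.2%. Nos1 and Kit had the highest group means of the 6 and so weighed most in the sums. Nos1 overlapped, at 30.8 and 58.9 CPM in striatomesencephalic and at 69, 21.6 and 96.5 CPM in striatopallidal libraries. Pvalb, Npy, Slc18a3, Vip, Cck, Lhx6 and Th were not analysed here. The part of interneuron RNA in the Slc32a1 values was not tested.

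**Figure D1:**
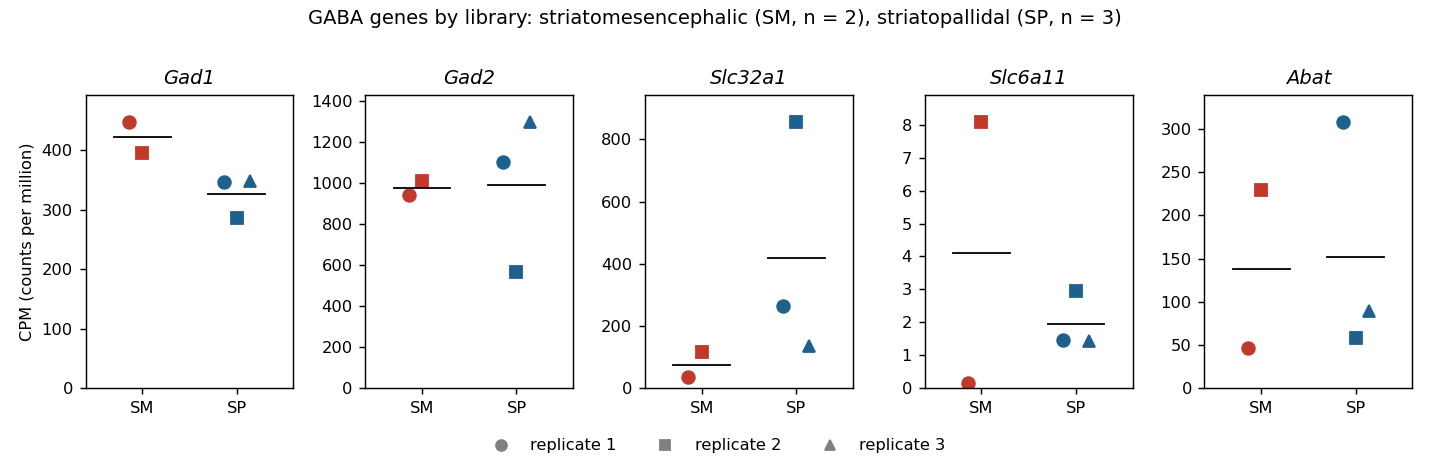
Level of each member in CPM (library-scaled counts; linear axes from 0, a separate scale per gene) in striatomesencephalic (SM, red, n = 2) and striatopallidal (SP, blue, n = 3) libraries; each symbol is 1 library, its shape the replicate, and the bar the group mean. The groups separate in Gad1, where SM is higher, and in Slc32a1, where SM is lower, and they overlap in the other members.

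Slc6a11, the gene of the astrocytic transporter GAT3, had few counts and sat at the detection floor in 1 library. It stood at 0.144 and 8.09 CPM (3 and 183 counts) in striatomesencephalic libraries and at 1.47, 2.94 and 1.43 CPM (35, 73 and 32 counts) in striatopallidal libraries. The 2 striatomesencephalic libraries were thus the lowest and the highest of all 5. The 95% Poisson interval of the 3 counts, which covers counting error only, ran from 0.0297 to 0.421 CPM, below all the other libraries. The fold change of 0.91 ± 1.55 (SE) had an adjusted p of 0.947 in edgeR's quasi-likelihood test and a 95% interval from -2.74 to 4.57. It was -3.90 without striatomesencephalic replicate 2, and -0.67 by limma voom, so its direction is not settled by these libraries.

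Astrocyte RNA was present in all 5 libraries beside these few Slc6a11 counts. All 12 astrocyte markers were matched and none was at 0 in any library. They summed to 2334 and 2098 CPM in striatomesencephalic libraries and to 2766, 2162 and 2318 CPM in striatopallidal libraries, and these ranges overlapped. Within the list 6 markers had a positive and 6 a negative fold change. In plain CPM, Aldh1l1, Slc1a2 and Ntsr2 lay wholly above in striatomesencephalic libraries, and Gfap, Aqp4 and Slc4a4 wholly below, against 11.2% and 9.91% of all genes tested. Slc1a2 overlapped once CPM was scaled by edgeR's trimmed mean of log ratios. On that scale it had 47 CPM in striatopallidal replicate 2 and 36 CPM in striatomesencephalic replicate 1. Gfap, an intermediate filament gene, stood at 11.5 and 3.85 CPM in striatomesencephalic and at 243, 175 and 87.7 CPM in striatopallidal libraries. Aldh1l1, a folate enzyme gene of astrocytes, stood at 1.87 and 7.83 CPM in striatomesencephalic and at 1.55, 0.484 and 0.312 CPM in striatopallidal libraries. Striatomesencephalic replicate 2, where Slc6a11 was highest, had the lowest sum over the list. It was the lowest library for Gfap, Aqp4, Gja1, Gjb6 and Glul, and the highest for Aldh1l1, Slc1a2 and Ntsr2. The part of astrocyte RNA in the Slc6a11 values was not tested.

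Abat varied about as much within each group as across them. It stood at 46 and 229 CPM in striatomesencephalic libraries and at 308, 58.1 and 88.7 CPM in striatopallidal libraries. The highest library was 4.99 times the lowest among striatomesencephalic and 5.31 times among striatopallidal libraries. Each group held both low and high libraries, and the means of 138 ± 130 CPM for the striatomesencephalic group (SD, n = 2) and 152 ± 137 CPM for the striatopallidal group (SD, n = 3) were close. The fold change was -0.089 ± 0.85 (SE), with an adjusted p of 0.994 in edgeR's quasi-likelihood test and a 95% interval from -2.09 to 1.91. It turned to 0.66 without striatomesencephalic replicate 1 and to 0.75 without striatopallidal replicate 1.

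The contrast in steadiness was measured as the SD within groups of log2(CPM + 1), with CPM scaled by TMM (edgeR's trimmed mean of log ratios). Its median over the 13811 genes was 0.74. Gad1 had 0.13, and 98.7% of the genes had a wider spread. Gad2 had 0.31, with 88.7% of the genes wider. The other members lay on the far side of the median: Slc32a1 at 1.49, Slc6a11 at 1.31 and Abat at 1.26, where 11.4%, 16.9% and 18.7% of the genes, in that order, were wider. The genes were not matched for level, and Slc6a11 rests on 3 to 183 counts per library.

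Ratios between members within a library do not depend on depth or scaling, and transcript length cancels when they are compared across libraries. The ratio of Gad1 to Gad2 counts was 0.477 and 0.392 in striatomesencephalic libraries and 0.315, 0.503 and 0.268 in striatopallidal libraries. The ranges overlapped, and the log2 ratios differed by 0.31 (exact two-sided permutation test, p = 0.5). The ratio of Gad1 to Slc32a1 counts was 12.9 and 3.39 in striatomesencephalic libraries and 1.31, 0.333 and 2.55 in striatopallidal libraries. Here both striatomesencephalic libraries lay above all the striatopallidal ones, with a log2 difference of 2.68. With 2 libraries against 3 the exact two-sided permutation test cannot go below 0.1, and it gave p = 0.2, or 0.45 adjusted over the 3 ratios compared.

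The ratio of Gad2 to Slc32a1 counts was 27.1 and 8.66 in striatomesencephalic libraries and 4.15, 0.662 and 9.51 in striatopallidal libraries. These ranges overlapped, since striatopallidal replicate 3 exceeded striatomesencephalic replicate 2. The log2 difference was 2.37 (exact two-sided permutation test, p = 0.3, adjusted p = 0.45). The ratio between the decarboxylase transcripts lay within 0.268 to 0.503, a narrower range than either had with Slc32a1. Its log2 values had an SD within groups of 0.40, above the 0.13 of Gad1 and the 0.31 of Gad2 alone. Whether the decarboxylase transcripts rise and fall together was not tested.

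**Figure D2:**
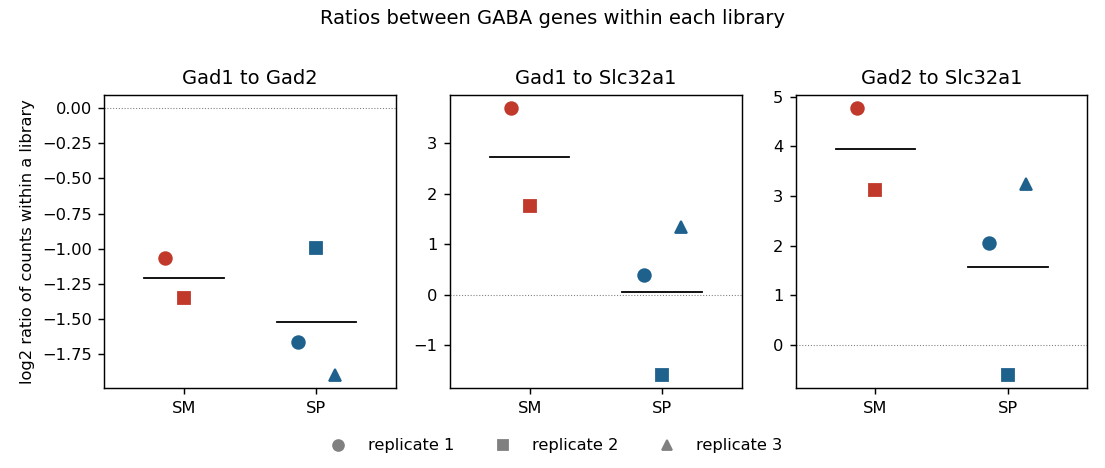
Log2 ratios of counts between pairs of members within each library (vertical axes, a separate scale per panel) for striatomesencephalic (SM, red, n = 2) and striatopallidal (SP, blue, n = 3) libraries, with bars at group means and a dotted line at equal counts. The SM libraries lie above the SP libraries for Gad1 to Slc32a1, by 2.68 between means, and the groups overlap in the other pairs.

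The members' patterns over the 5 libraries were also compared by the root mean square difference of their centred log2(CPM + 1), again TMM-scaled. Gad1 and Gad2 were the closest pair of members, at 0.35, and Gad2 and Slc32a1 the farthest, at 1.77. Genes that vary little lie close by this measure whether or not they rise and fall together. Among 8639 genes with a symbol and a mean of at least 10 CPM, the nearest to Gad1 were Reep5, which shapes the endoplasmic reticulum (0.052), AABR07035428.1 (0.062) and Rab7a, a GTPase of late endosomes (0.064). The nearest to Gad2 were LOC102554591 (0.040), Irf2bp1 (0.043) and Susd6 (0.073). The nearest to Slc32a1 were Mt3, a metallothionein (0.18), Sav1, a scaffold of the Hippo pathway (0.24), and Ufl1, a ligase for the protein modifier UFM1 (0.39).

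Mt3 shows what such a match looks like, at 2.21 and 8.09 CPM in striatomesencephalic libraries and 18.8, 57.2 and 12 CPM in striatopallidal libraries, with the same order of all 5 libraries as Slc32a1. The nearest to Slc6a11 were the metal transporter gene Slc39a14 (0.16), the growth factor gene Vegfc (0.19) and the mannosidase gene Man1a2 (0.2). The nearest to Abat were Mbip (0.27), Cdk2ap2 (0.34) and the guanylate kinase gene Guk1 (0.35). Median differences to all candidates were 0.67 for Gad1, 0.7 for Gad2, 1.7 for Slc32a1, 1.18 for Slc6a11 and 1.2 for Abat. With 5 libraries and so many candidates these are descriptions without a test.

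The other genes of GABA handling were taken from a list of 26, of which 24 were matched and tested, and Slc6a12 and Slc38a5 were not analysed here. None of the 24 passed in edgeR's quasi-likelihood test, 1 had an unadjusted p below 0.05, DESeq2 called 1 and limma voom called 0. Of the 24, 14 had a positive and 10 a negative fold change, with a median of 0.13. Over all genes tested, 6550 were positive and 7261 negative, with a median of -0.059. In plain CPM, groups did not overlap for 4 of the 24 with striatomesencephalic libraries higher and for 2 with them lower. The shares over all genes tested, also in plain CPM, were 11.2% and 9.91%.

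Slc6a13, which encodes GAT2, known mainly from the brain's coverings and from liver and kidney, had the smallest p of the list. Its counts were 1 and 10 in striatomesencephalic libraries and 88, 761 and 46 in striatopallidal libraries, a non-overlapping difference of -5.92 ± 2.03 (SE). Its adjusted p was 0.779 in edgeR's quasi-likelihood test, while DESeq2 called it (adjusted p = 0.0088). The count of 1 lies under the detection floor of 3 counts, so the size of this fold change is uncertain: it was -8.18 without striatomesencephalic replicate 2 and -3.41 without striatopallidal replicate 2.

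On the side of breakdown, Aldh5a1, which encodes succinic semialdehyde dehydrogenase, the step after Abat, stood at 175 and 186 CPM in striatomesencephalic and at 108, 138 and 120 CPM in striatopallidal libraries. The groups did not overlap in plain CPM. With TMM scaling they did, since striatopallidal replicate 2 (178 CPM) exceeded striatomesencephalic replicate 1 (167 CPM). The fold change was 0.45 ± 0.44 (SE; adjusted p = 0.871 in edgeR's quasi-likelihood test). Akr7a2, an aldehyde reductase that can turn the same intermediate into gamma-hydroxybutyrate, had 27.2 and 17 CPM in striatomesencephalic and 12.5, 0.282 and 1.78 CPM in striatopallidal libraries. Its groups did not overlap on either scale, and its fold change was 2.29 ± 1.33 (SE; adjusted p = 0.799 in edgeR's quasi-likelihood test). With each library left out in turn, it ran from 1.74 without striatopallidal replicate 2, where Akr7a2 had 7 counts, to 4.37 without striatopallidal replicate 1.

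Of the genes that supply or recycle glutamate, Gls2, a glutaminase, had 0.85 ± 1.21 (SE), and Glul, the glutamine synthetase of astrocytes, -0.065 ± 0.39 (SE), and both overlapped between the groups. Gls2 was 0.13 when striatomesencephalic replicate 2 was left out and 0.32 when striatopallidal replicate 2 was. Got2, a mitochondrial aspartate aminotransferase, stood at 888 and 735 CPM in striatomesencephalic and at 827, 8507 and 787 CPM in striatopallidal libraries. Its fold change of -2.40 ± 1.25 (SE) rested on striatopallidal replicate 2 and was 0.091 without it.

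Gabbr2, a subunit of the metabotropic GABA-B receptor, had its highest values in the striatomesencephalic libraries. It stood at 62.2 and 41.3 CPM there and at 29, 20.4 and 20.2 CPM in striatopallidal libraries. The groups did not overlap, and the fold change of 1.08 ± 0.59 (SE) did not pass (adjusted p = 0.787 in edgeR's quasi-likelihood test). Its 95% interval ran from -0.31 to 2.47.

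**Figure D3:**
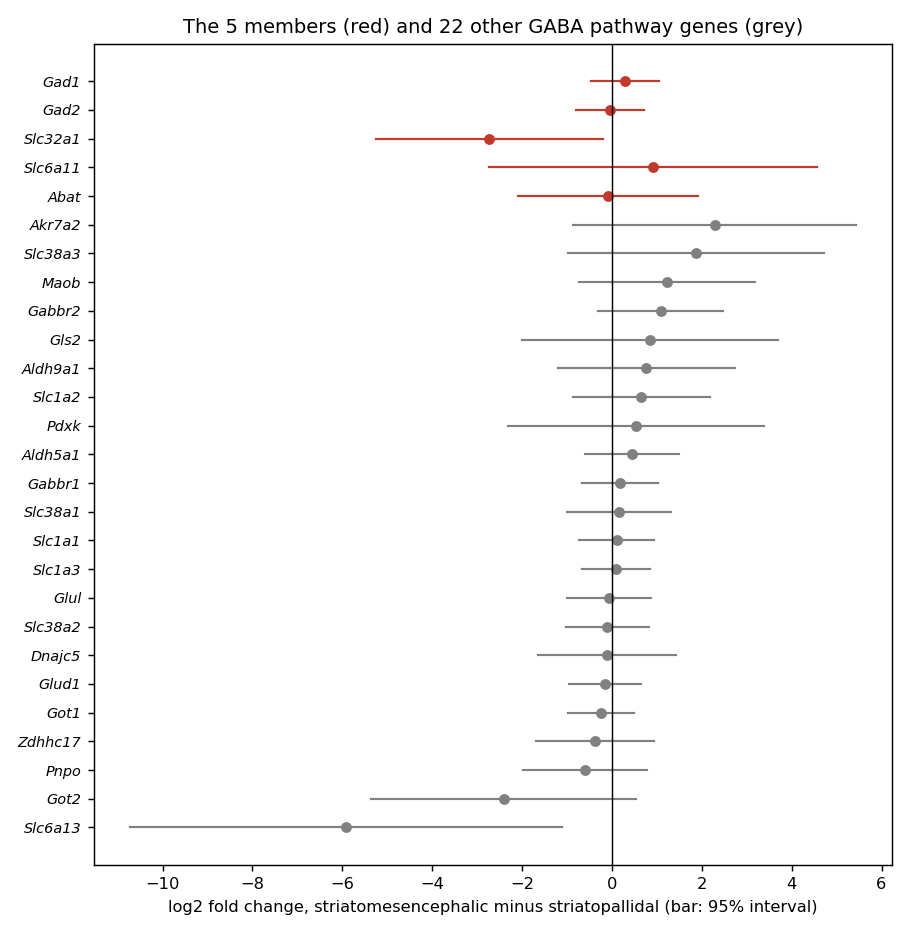
Log2 fold change (horizontal axis, striatomesencephalic minus striatopallidal; points, with bars for the 95% interval) of the 5 members in red and of 22 of the 24 other GABA pathway genes in grey. The intervals of Slc32a1 and Slc6a13 lie wholly below 0, and no gene shown passed after adjustment over 13811 genes.

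The sign of the fold changes in the authors' deposited table runs the other way, striatopallidal over striatomesencephalic, as read from the data: it was opposite to the sign of the fold changes above for 88.4% of 11919 genes. In the authors' deposited table Slc32a1 had 2.40 with a p of 0.0556 and an adjusted p of 0.927. Gad1 had -0.38, Gad2 -0.13, Slc6a11 0.64 and Abat 0.059 in the authors' deposited table. With the direction allowed for, Gad1, Slc32a1 and Abat lay on the same side as in the count test, and Gad2 and Slc6a11 on the other. No gene of the authors' deposited table had an adjusted p below 0.05.

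Leaving out each library in turn largely restated the overlap given above. Groups that do not overlap, as in Gad1 and Slc32a1, can hardly change direction when a library is dropped. Gad1 stayed between 0.23 and 0.37. Slc32a1 stayed below 0, between -3.88 without striatomesencephalic replicate 2 and -1.30 without striatopallidal replicate 2. Slc6a11 and Abat moved across 0, between -3.90 and 1.89 and between -1.70 and 0.75, and Gad2 did so within -0.22 to 0.15.

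**Figure D4:**
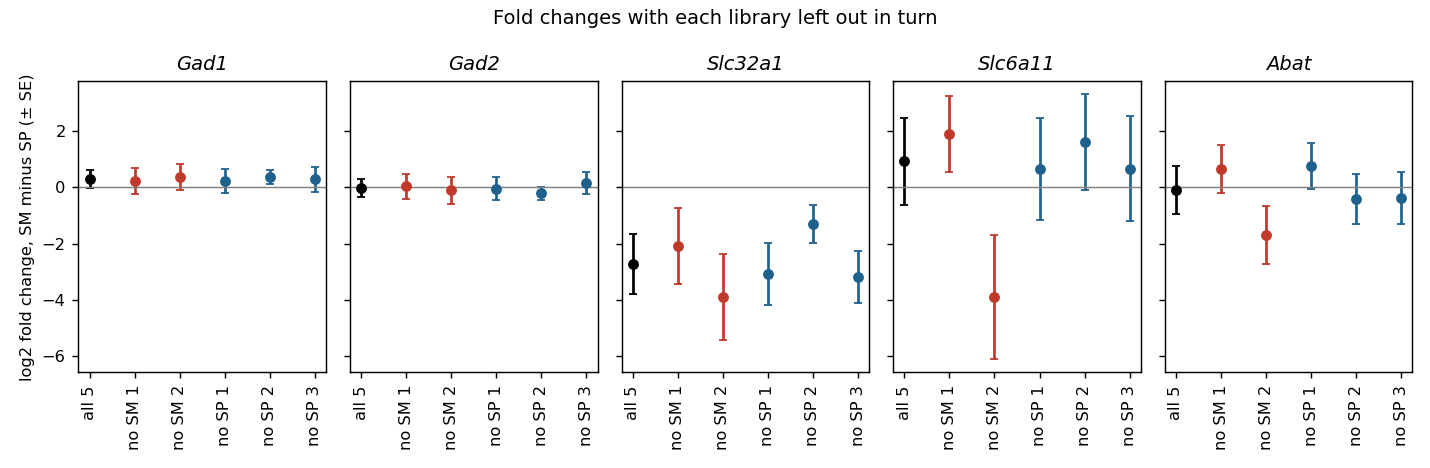
Log2 fold change of each member (vertical axis, SM minus SP, with SE bars) with all 5 libraries (black) and with 1 striatomesencephalic (SM, red) or striatopallidal (SP, blue) library left out. Gad1 stays near 0.29 and Slc32a1 stays below 0, while Slc6a11 falls to -3.90 without SM replicate 2.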

How the data were processed

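Per the labels' protocols, polyadenylated RNA of laser-captured neurons was copied and amplified with a kit made for single cells and then sequenced. The submitters' processing notes name the tools TopHat2, HTSeq, edgeR and limma and build Rnor_6.0; the sources used here give no versions, roles or strand setting. As deposited by the authors, the values are whole read counts per gene, in 1 table for each library. The authors' deposited comparison gives log2 fold changes, p-values and adjusted p-values for 12054 genes; its t and log-odds scores, as deposited, were not used, nor were the tables of scaled values.

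The main test was that of edgeR 4.0.16 under R 4.3.3 (filterByExpr by group, TMM, glmQLFit, glmQLFTest) on all 5 libraries, with cell type as the only term. SEs came from each F statistic, and 95% intervals from the fit's degrees of freedom. CPM values are plain, scaled to the library total, unless called TMM-scaled. DESeq2 1.42.0 and limma voom (limma 3.58.1) were alternatives, with RLE scaling, no scaling, no filter, each library left out and the replicate number as a block. The steps were run on simulated counts that varied less between libraries than the common estimate for these data. That run therefore does not show how well the test detects changes here. The chi-square per degree of freedom of each pair of libraries lay between 164 and 585, so none was taken as a repeat of another.

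Gene names came from the authors' deposited comparison. Motifs were searched in RefSeq promoter windows of build GRCr8, which differs from the build of the counts. The members and gene lists were chosen with earlier results of these data known. Besides the members, the genes named were fixed neighbours in the pathway, the 4 others of its list with the smallest p, and the 3 genes nearest in pattern to each member. Some genes that this rule takes, though counted in the list, are not reported here. Poisson intervals and floors cover counting error only.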

Additional observations from a re-analysis of the deposited data

How the results depend on the processing

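All 5 members stayed on the same side of the threshold under RLE scaling, no scaling, no filter, DESeq2, limma voom and the replicate block. The same held with each striatopallidal library left out. Apart from DESeq2, no gene passed under these settings, so no member could have crossed there. Under each of the 11 alternatives Gad1 and Slc32a1 kept their direction, at 0.23 to 0.37 and at -3.88 to -1.30. Groups that do not overlap, as theirs, tend to do so. The 3 log2 ratio differences kept their direction with 1 count added, with each library left out and with the replicate number as a block, the Gad1 to Gad2 difference ranging from 0.12 to 0.57. Directions that turned belonged to values with wide or near-zero estimates, and the cause was not tested. Leaving out each library in turn, Gad2 ran from -0.22 to 0.15, Slc6a11 from -3.90 to 1.89 and Abat from -1.70 to 0.75; single values were 0.032 and 0.15 for Gad2, -3.90 for Slc6a11, and 0.66 and 0.75 for Abat. Slc6a11 was -0.67 with limma voom. Glul ran from -0.44 to 0.24, being 0.025 with library totals only, 0.24 without striatomesencephalic replicate 2 and 0.094 without striatopallidal replicate 2, and Got2 ran from -2.91 to 0.091, the last without striatopallidal replicate 2. DESeq2 called 219 genes, 1 of them in the pathway list. The first-ranked gene in pattern changed for Slc32a1, Slc6a11 and Abat with a mean of 50 CPM as the floor, and for Gad2 with plain CPM.

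The replicate numbers are not known to pair the libraries: deviations from the group means correlated at -0.026 for number 1 and -0.037 for number 2. With the replicate number as a block, Gad2 turned to 0.17 and Slc6a11 to -0.94, Slc32a1 was -3.04, Gls2 was 2.02, and 0 genes passed. The low counts of Slc6a11 and the 2 striatomesencephalic libraries limit what can be resolved.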

Other observations

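Other genes of the GABA list were low in 1 library of a group. These were picked after their values were seen. Pdxk, the kinase that makes pyridoxal phosphate, the cofactor of the decarboxylases, stood at 21 and 28.5 CPM in striatomesencephalic libraries and at 18.5, 0.766 and 34.3 CPM in striatopallidal libraries. Gls2 likewise stood at 5.80 and 13.1 CPM in striatomesencephalic libraries and at 8.05, 0.443 and 8.12 CPM in striatopallidal libraries. In both genes the low library was striatopallidal replicate 2, which had the highest Slc32a1 and Got2 values.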
